A study of Mus musculus with 8 samples.

Results

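The 10 genes described here mark the dendritic cells of the mouse spleen and were taken by symbol from the 52636 genes of the deposited count table. They are Xcr1, Clec9a, Batf3, Irf8, Zbtb46, Itgax, Flt3, Cd209a, Siglech and Ccr9, and all 10 were among the 17327 genes that passed a filter on low counts and entered the tests. The RNA came from spleens of wild type C57BL/6 mice and of mutants with R527C in Lmna, which codes for lamins A and C, all 6 weeks old. Both genotypes were sampled at day 0 with no irradiation and at day 7 following 4 Gy. This makes 4 groups of 2 samples, called below unirradiated wild type, unirradiated mutant, irradiated wild type and irradiated mutant. The labels do not say whether the mutation was on 1 or both alleles, whether a group's 2 samples are separate mice, or which sex the mice had. According to its design text, the study looked for the way in which the mutation leads to senescence.

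Dendritic cells take up antigen, carry it to the lymphocyte zones of the spleen and present it to T cells. Conventional dendritic cells of type 1 present antigen from dead cells to CD8 T cells, those of type 2 mainly to CD4 T cells, and plasmacytoid dendritic cells release type I interferon when they sense viral nucleic acid. All arise from bone marrow progenitors that carry the receptor tyrosine kinase Flt3, and their supply depends on its ligand. Irf8 and Batf3 are transcription factors needed for the type 1 subset, and Irf8 is also high in plasmacytoid cells and present in B cells. Zbtb46 is a transcription factor of conventional dendritic cells and their committed precursors, and is also known from endothelium and red cell precursors. Several of the other genes are shared as well: Itgax, which codes for CD11c, with some macrophages and NK cells, Flt3 with early blood progenitors, and Ccr9 with T cells. In whole spleen RNA, fewer cells of a type and less RNA per cell cannot be told apart.

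The start site regions of 4 genes on which the results below turn are given here, each as the 250 bases before the RefSeq start site (GRCm38.p6), 5′ to 3′ on the strand of the gene. Xcr1 at chr9:123862030-123862279 (minus strand) and Zbtb46 at chr2:181424389-181424638 (minus strand) belong to the 2 genes that were higher in every irradiated library. The Zbtb46 start site of this table lies inside the gene, 35038 bases downstream of the 5′ end in the GENCODE annotation. There 1 of 5 transcripts starts, and the same base opens exon 2 of the longest one, so the window shown is an intron of that transcript and the promoter at the 5′ end was not searched. Cd209a at chr8:3748985-3749234 (minus strand) had lower values in the mutant than in the wild type libraries of the same treatment, without passing the main adjusted test. Siglech at chr7:55767934-55768183 (plus strand) stands for the plasmacytoid subset. Capitals mark matches to motifs of factors that act in dendritic cells.
Xcr1: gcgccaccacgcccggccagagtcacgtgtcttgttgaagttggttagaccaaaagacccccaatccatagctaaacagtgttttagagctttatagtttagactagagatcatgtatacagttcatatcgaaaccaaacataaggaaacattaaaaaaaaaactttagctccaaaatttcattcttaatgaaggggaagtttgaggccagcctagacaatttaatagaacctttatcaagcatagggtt
Zbtb46: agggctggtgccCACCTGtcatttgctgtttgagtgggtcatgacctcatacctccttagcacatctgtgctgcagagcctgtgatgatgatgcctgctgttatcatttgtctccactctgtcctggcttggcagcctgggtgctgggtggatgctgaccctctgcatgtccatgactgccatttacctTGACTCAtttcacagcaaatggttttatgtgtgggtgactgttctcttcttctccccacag
Cd209a: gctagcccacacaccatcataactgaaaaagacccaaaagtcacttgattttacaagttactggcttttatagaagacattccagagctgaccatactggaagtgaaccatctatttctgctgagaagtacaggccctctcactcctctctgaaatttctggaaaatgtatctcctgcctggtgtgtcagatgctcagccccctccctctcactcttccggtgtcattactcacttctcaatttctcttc
Siglech: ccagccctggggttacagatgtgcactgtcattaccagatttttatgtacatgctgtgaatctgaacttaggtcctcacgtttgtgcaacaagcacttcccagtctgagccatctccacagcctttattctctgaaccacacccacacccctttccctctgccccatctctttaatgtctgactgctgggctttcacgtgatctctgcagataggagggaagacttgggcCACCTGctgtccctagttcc
Zbtb46 held TGANTCA, the motif of AP-1 factors such as the Batf3 dimer with Jun, starting 61 bases before the start site, and CACCTG, an E-box of the E proteins that include Tcf4, at 238 bases before it. Siglech held CACCTG at 20 bases before its start. The windows of Xcr1 and Cd209a held none of the 5 motifs searched on both strands, which says only that these letters are not in these windows. Over all 10 genes, TGANTCA was present in 2 (Itgax and Zbtb46) against 6.75% of 32817 RefSeq promoters of the same length. CACCTG was present in 4 (Irf8, at the second of its start sites, Zbtb46, Siglech and Ccr9, whose start site lies 88772 bases downstream of the annotated 5′ end) against 17.2%, and GAGGAA, a core of PU.1 sites, in 1 (Batf3) against 23.3%. The composite element bound by PU.1 with Irf8 or Irf4 (GGAA, any 2 bases, then GAAA) and the core of interferon response elements (GAAA, any 2 bases, then GAAA) were in 0 of the 10, against 2.30% and 2.97% of promoters. Matches to GAGGAA and to the composite element can overlap. A gene was counted if the window of any of its start sites held the motif, and Irf8 has 2 windows. The percentages are shares of single windows.

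All 10 genes were read in every library, so the marks of the 3 subsets were present in all of these spleens. Levels between genes are compared per length, as CPM (counts per library size after TMM scaling) per kb of annotated exon. In unirradiated wild type Irf8 stood highest at 41.0 ± 2.02 (SD, n = 2) CPM per kb. Itgax followed at 11.8 ± 0.0541 (SD, n = 2) and Batf3 at 10.7 ± 3.01 (SD, n = 2), which did not differ beyond their spread. Clec9a was at 6.67 ± 0.838 (SD, n = 2), Cd209a at 5.43 ± 0.0608 (SD, n = 2) and Flt3 at 4.29 ± 0.211 (SD, n = 2). Zbtb46 at 3.46 ± 0.560 (SD, n = 2), Siglech at 3.02 ± 0.0442 (SD, n = 2) and Xcr1 at 3.01 ± 0.297 (SD, n = 2) could not be put in order beyond their spread. Ccr9 was lowest at 0.669 ± 0.162 (SD, n = 2), with a model of 10260 exon bases over which to divide. In irradiated mutants Irf8 was still highest, at 28.6 ± 16.6 (SD, n = 2) CPM per kb, and Ccr9 lowest, at 0.537 ± 0.293 (SD, n = 2). Xcr1 stood 9th of 10 in unirradiated wild type and 5th in irradiated mutants, and Cd209a 5th and 9th.

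The 8 libraries held 12100784 to 19455470 counts, and the upper limit behind a count of 0 (3 counts, for counting error only) was 0.131 to 0.350 CPM. Every gene described here was above that floor in every library, the lowest value being 2.22 CPM. The 2 libraries of a group agreed less after irradiation, with a correlation of log2 CPM across genes of 0.942 (wild type) and 0.877 (mutants), against 0.982 and 0.988 in the unirradiated groups. Irradiation coincided with the sex-linked transcripts: Xist was at most 0.262 CPM in the unirradiated libraries and 1029 to 1776 CPM in the irradiated ones, and the 4 Y-linked genes had 0 counts in all irradiated libraries. Dose, day and the difference in these transcripts therefore cannot be told apart in any comparison of irradiated with unirradiated spleens below. Lmna itself carries a substitution, so its level would not check the genotype labels.

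**Figure D1:**
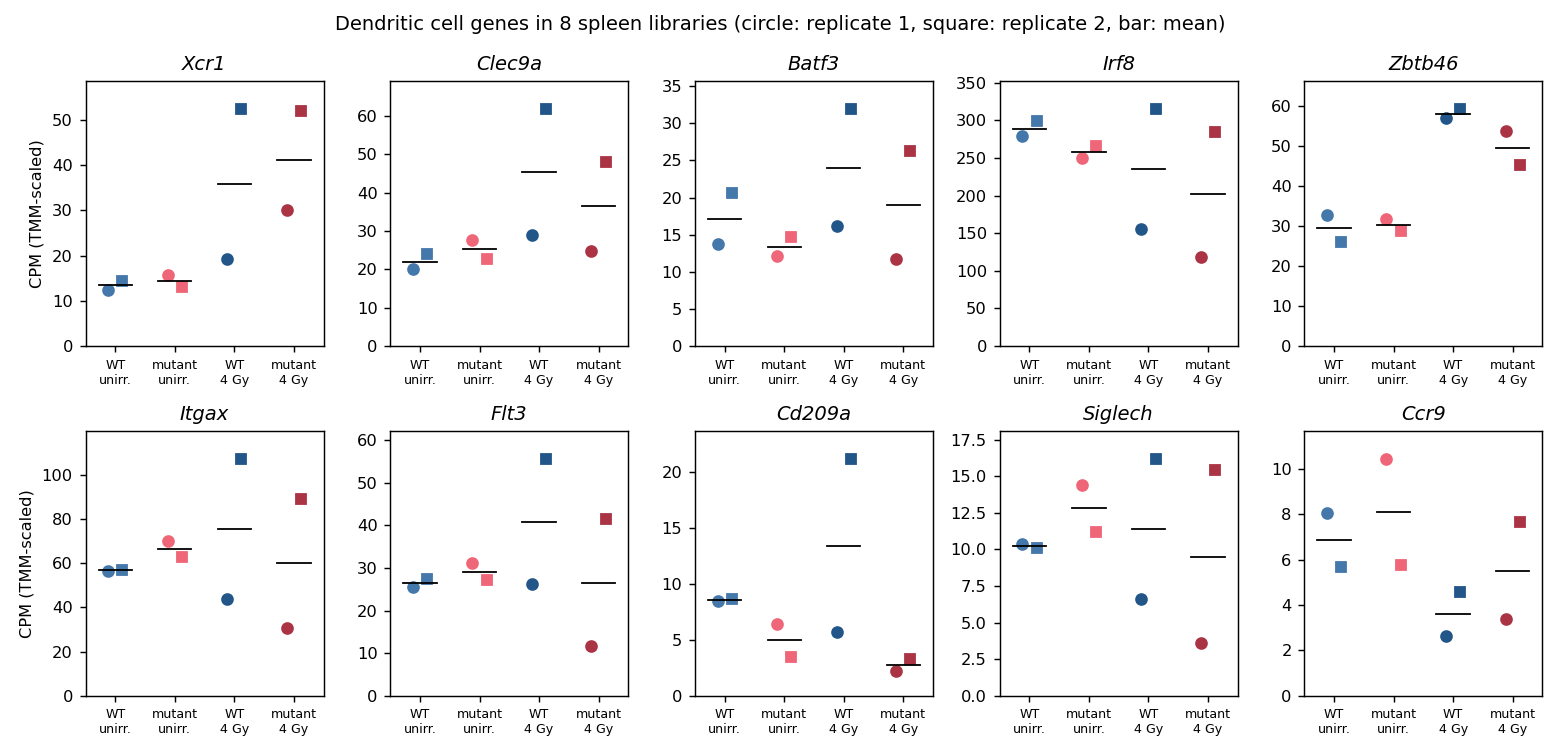
Level of each gene, in TMM-scaled CPM on a linear axis from 0, in the 8 libraries by group. Circles are replicate 1, squares replicate 2 and bars the mean of the 2. Xcr1 and Zbtb46 were higher in all 4 irradiated libraries, and in 9 of the 10 genes the square lay above the circle in both irradiated groups.

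The first comparison was between irradiated and unirradiated spleens of each genotype. Xcr1 and Zbtb46 were higher in each of the 4 irradiated libraries than in any unirradiated one, Clec9a was higher in irradiated wild type, and the remaining genes had no common direction. None of the 10 passed the test adjusted over all genes (edgeR's quasi-likelihood test, Benjamini-Hochberg threshold 0.05) in wild type, where 0.0577% of all tested genes did, or in mutants, where 0.6% did. DESeq2 also called 0 of the 10, while calling 5.43% and 9.23% of the genes to which it gave an adjusted p. With the unadjusted p, values under 0.05 were found for 3 of 10 in wild type (Xcr1, Clec9a and Zbtb46, all higher, against 17.3% of tested genes, 8.69% higher and 8.57% lower) and 2 of 10 in mutants (Xcr1 and Zbtb46, both higher, against 22.1%, 13.4% higher and 8.7% lower).

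Xcr1 codes for the receptor by which type 1 conventional dendritic cells follow the chemokine Xcl1 released by NK and CD8 T cells. It lies on chromosome 9 (GRCm38, 123852315 to 123862029, minus strand), 67985 bases from Ccr9. Its level was 12.5 and 14.4 CPM in the unirradiated and 19.3 and 52.3 in the irradiated wild type, and 15.8 and 13.1 in the unirradiated and 30.1 and 52.0 in the irradiated mutants. The irradiated values were all above the unirradiated ones, but the irradiated wild type libraries differed from each other by more than the lower of them differed from the unirradiated spleens. The log2 fold change of irradiated over unirradiated was 1.42 ± 0.49 (SE, unadjusted p = 0.0209, adjusted p = 0.225) in wild type and 1.51 ± 0.49 (SE, unadjusted p = 0.0156, adjusted p = 0.147) in mutants. Without irradiated wild type replicate 2 the first of these was 0.51, and without irradiated mutant replicate 2 the second was 0.91.

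Clec9a, a C-type lectin that recognises actin exposed on dead cells and marks the same subset and its precursors, was at 20.0 and 23.9 CPM in the unirradiated and 28.9 and 61.7 in the irradiated wild type, and 27.6 and 22.8 in the unirradiated and 24.9 and 48.1 in the irradiated mutants. The wild type groups were apart, with the lower irradiated library at 28.9 against 23.9, and the mutant groups overlapped. Its log2 fold change was 1.05 ± 0.45 (SE, unadjusted p = 0.0483, adjusted p = 0.289) in wild type and 0.54 ± 0.44 (SE, adjusted p = 0.494) in mutants. In wild type it was 0.38 without irradiated wild type replicate 2. The gene shares its place on chromosome 6 with Clec1b and a predicted gene, and since no strand setting is stated, reads of the overlap cannot be assigned with certainty.

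Batf3 was at 13.8 and 20.6 CPM in the unirradiated and 16.2 and 31.9 in the irradiated wild type, and 12.1 and 14.7 in the unirradiated and 11.7 and 26.3 in the irradiated mutants. Irradiated and unirradiated values overlapped in both genotypes, with log2 fold changes of 0.49 ± 0.49 (SE) and 0.51 ± 0.49 (SE). Irf8 was at 279 and 299 CPM in the unirradiated and 155 and 315 in the irradiated wild type, and 250 and 266 in the unirradiated and 119 and 284 in the irradiated mutants. In each irradiated group 1 library was below and 1 above the unirradiated values of the same genotype, and the fold change carried no direction beyond its error (-0.30 ± 0.49 SE in wild type and -0.36 ± 0.49 SE in mutants).

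In CPM, Zbtb46 had the smallest gap between the irradiated libraries of a group. It was at 32.8 and 26.1 CPM in the unirradiated and 57.0 and 59.2 in the irradiated wild type, and 31.8 and 28.7 in the unirradiated and 53.8 and 45.2 in the irradiated mutants. The irradiated range of 45.2 to 59.2 CPM did not touch the unirradiated range of 26.1 to 32.8 CPM, and the libraries of each group lay close together. The log2 fold change was 0.98 ± 0.26 (SE, unadjusted p = 0.0060, adjusted p = 0.171) in wild type and 0.71 ± 0.26 (SE, unadjusted p = 0.0268, adjusted p = 0.179) in mutants. Over all alternatives the wild type value ran from 0.63 to 2.44. These include a scale described below that raised the median of all genes by 1.46 in wild type. Erythroid markers, from cells in which Zbtb46 is also known, summed to 51339 to 62726 CPM in irradiated wild type against 21995 to 39017 in unirradiated wild type, and to 11424 and 127743 CPM in irradiated mutants against 16027 to 17016 in unirradiated mutants. In the irradiated mutants Zbtb46 was 53.8 CPM in the library with 127743 CPM of erythroid markers and 45.2 in the one with 11424; the part of red cell precursors in the Zbtb46 result was not tested. Over all tested genes, 12.8% were higher in every irradiated library than in every unirradiated one, against 2 of these 10, and 14.2% were lower, against 0 of 10.

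**Figure D2:**
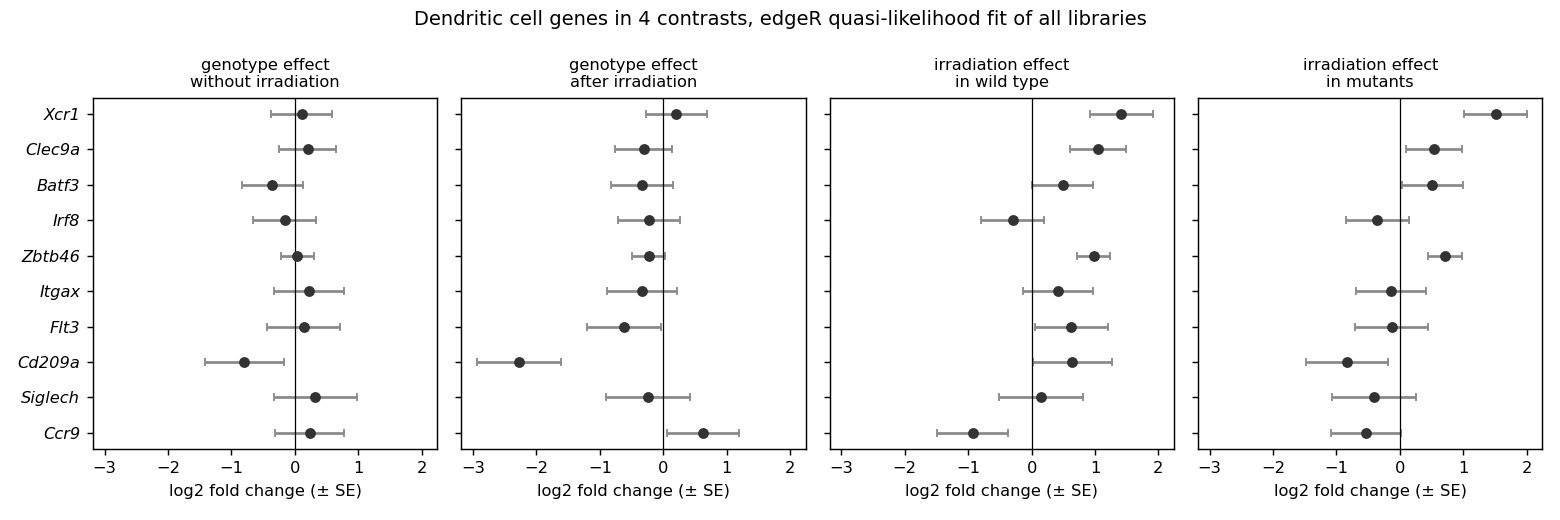
Log2 fold change of each gene (point) with its SE (bar) in the 2 genotype and the 2 irradiation comparisons, from edgeR's fit of all 8 libraries. Xcr1 lies furthest to the right after irradiation (1.42 in wild type and 1.51 in mutants), and Cd209a lies furthest to the left between irradiated genotypes (-2.27); no point passed the adjusted threshold.

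Itgax, the integrin chain used to sort dendritic cells, was at 56.5 and 56.9 CPM in the unirradiated and 43.7 and 107.0 in the irradiated wild type, and 69.9 and 62.8 in the unirradiated and 30.7 and 89.0 in the irradiated mutants. Flt3 was at 25.5 and 27.4 CPM in the unirradiated and 26.1 and 55.5 in the irradiated wild type, and 31.1 and 27.2 in the unirradiated and 11.6 and 41.4 in the irradiated mutants. For both genes each irradiated group had 1 library within or below the unirradiated range of its genotype and 1 above it. Their log2 fold changes in wild type were 0.41 ± 0.55 (SE) for Itgax and 0.63 ± 0.58 (SE) for Flt3, and in mutants -0.14 ± 0.55 (SE) and -0.13 ± 0.58 (SE).

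Cd209a, a C-type lectin of type 2 conventional dendritic cells and monocyte-derived cells, was at 8.53 and 8.67 CPM in the unirradiated and 5.68 and 21.2 in the irradiated wild type, and 6.46 and 3.44 in the unirradiated and 2.22 and 3.27 in the irradiated mutants. Irradiated and unirradiated wild type overlapped, and both irradiated mutants were below both unirradiated ones. The log2 fold change was 0.64 ± 0.62 (SE) in wild type and -0.84 ± 0.64 (SE, adjusted p = 0.464) in mutants, where it was 0.49 when scaled to the leukocyte gene Ptprc.

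Of the plasmacytoid genes, Siglech, a Siglec receptor that marks mouse plasmacytoid cells and some macrophages, was at 10.3 and 10.1 CPM in the unirradiated and 6.58 and 16.2 in the irradiated wild type, and 14.4 and 11.2 in the unirradiated and 3.62 and 15.4 in the irradiated mutants. The irradiated libraries lay on both sides of the unirradiated ones in each genotype, and the log2 fold change was 0.15 ± 0.66 (SE) in wild type (-0.16 on library totals alone) and -0.41 ± 0.66 (SE) in mutants. Ccr9, the receptor for Ccl25, was at 8.05 and 5.69 CPM in the unirradiated and 2.61 and 4.59 in the irradiated wild type, and 10.4 and 5.77 in the unirradiated and 3.39 and 7.64 in the irradiated mutants. The wild type groups were apart, with both irradiated values lower, and the mutant groups overlapped, and the log2 fold change was -0.93 ± 0.56 (SE, adjusted p = 0.406) in wild type and -0.54 ± 0.55 (SE) in mutants, or 0.45 and 0.66 when scaled to Ptprc. The annotated body of Ccr9 overlaps 6 other genes, among them Slc6a20a and Lztfl1, so part of its count is uncertain.

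Read against all genes, the non-overlapping counts were not large. In wild type, 3 of 10 genes were higher in both irradiated libraries (Xcr1, Clec9a and Zbtb46) against 29.7% of tested genes, and 1 (Ccr9) was lower against 27.8%. In mutants, 2 (Xcr1 and Zbtb46) were higher against 26.9% and 1 (Cd209a) was lower against 25.7%. Log2 fold changes were above 0 for 8 of 10 in wild type, against 54.2% of tested genes, and for 4 of 10 in mutants, against 56.3%. Their median was 0.56 in wild type and -0.14 in mutants, against 0.09 and 0.15 over all tested genes.

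The irradiated spleens also differed between the libraries of a group. In both genotypes, 9 of the 10 genes were higher in replicate 2 than in replicate 1 after irradiation, all except Zbtb46, and 39.4% of tested genes did the same. The opposite held for 0 of 10, against 34.6%. The ratio of replicate 2 to replicate 1 had a median over the 10 genes of 2.13 between the irradiated wild type and 2.25 between the irradiated mutant libraries, against 1.01 and 1.08 over all tested genes. In the unirradiated groups the same median was 1.04 in wild type and 0.853 in mutants. Nothing in the labels ties replicate 2 of one genotype to that of the other. Over all tested genes, the deviations of same-numbered irradiated libraries from their group means correlated at 0.465.

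Single genes differed in the size of this gap. In irradiated mutants Siglech had the widest ratio, 4.25, and Zbtb46 the smallest, 0.839. In irradiated wild type Cd209a had the widest ratio, 3.73, and Zbtb46 the smallest, 1.04. Genes of other cells differed along with them. Between the irradiated mutant libraries the summed B cell markers differed 13.8-fold, T cell markers 8.47-fold, stroma markers 5.11-fold and NK cell markers 1.84-fold, all higher in replicate 2, and erythroid markers were at 0.0894 of the replicate 1 level. Between the irradiated wild type libraries the same ratios were 2.01, 1.81, 2.36, 1.65 and 1.22. Macrophage and monocyte markers stayed closer in irradiated mutants, at 0.858. In irradiated wild type they were at 1.32, where erythroid markers were closer. The part of these other cells in the dendritic cell gene values was not tested.

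**Figure D3:**
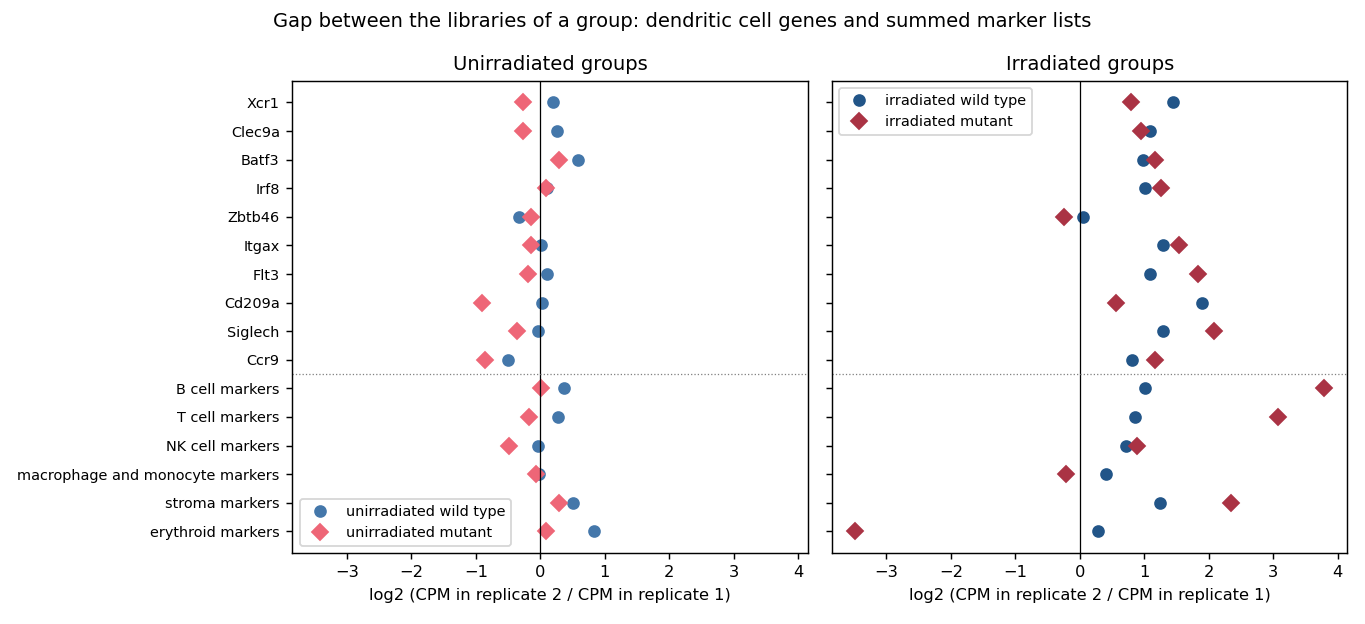
Log2 ratio of replicate 2 to replicate 1 in each group, for each dendritic cell gene and, below the dotted line, for the summed CPM of marker lists of other cells. In the unirradiated groups (left) the points scatter around 0; in the irradiated groups (right) 9 of 10 genes lie to the right of 0 in both genotypes, and B and T cell markers of irradiated mutants lie further out (13.8-fold and 8.47-fold).

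A scale with a leukocyte gene as its divisor was added after these gaps between libraries had been seen. Any reads of a gene from red cell precursors stayed in its own count. Each gene was divided by the counts of Ptprc (CD45), which leukocytes carry and late red cell precursors do not. Ptprc itself was at 891 and 950 CPM in the unirradiated and 272 and 423 in the irradiated wild type, and 979 and 827 in the unirradiated and 211 and 628 in the irradiated mutants. Because Ptprc was lower in every irradiated library, this scale raised the median log2 fold change of all genes by 1.46 in wild type and 1.43 in mutants, and single genes have to be read against that shift. Per 100 Ptprc counts, Xcr1 was 1.40 to 1.61 in the unirradiated libraries and 7.09 to 14.3 in the irradiated ones. Zbtb46 was 2.74 to 3.68 and 7.19 to 25.5, and Clec9a 2.25 to 2.82 and 7.66 to 14.6. All 3 stood apart on this scale, as did Batf3, Irf8, Itgax, Flt3 and Siglech.

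In all, 8 of 10 genes were higher per Ptprc count in every irradiated library, against 52.5% of tested genes, and 0 were lower, against 1.27%. Cd209a and Ccr9 were the exceptions, since their irradiated and unirradiated ranges overlapped (0.520 to 5.01 against 0.416 to 0.957 for Cd209a, and 0.960 to 1.60 against 0.599 to 1.06 for Ccr9). Ptprc was itself higher in replicate 2 of both irradiated groups, so dividing by it can narrow the gap of any gene also higher there. How many of all tested genes narrowed was not counted. The ratio of the higher to the lower irradiated library of a group was smaller on this scale than in CPM for 9 of 10 genes in wild type, all except Zbtb46, and for 8 of 10 in mutants, all except Zbtb46 and Cd209a. Its median over the 10 genes was 1.43 in wild type and 1.38 in mutants, against 2.13 and 2.25 in CPM. In irradiated mutants it went from 2.90 to 1.03 for Itgax and barely moved for Xcr1 (1.73 and 1.72), while it widened from 1.19 to 3.54 for Zbtb46 (25.5 and 7.19 per 100 Ptprc counts) and from 1.47 to 2.02 for Cd209a. With the fit scaled to Ptprc, Xcr1, Clec9a and Batf3 passed edgeR's adjusted threshold in mutants, all higher, where 14% of all tested genes passed and 13.6% passed as higher. In wild type 0 of the 10 passed, against 0.566% of tested genes. The log2 fold change of Xcr1 was then 2.74 in wild type and 2.81 in mutants, of which 1.46 and 1.43 are the shift of all genes.

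**Figure D4:**
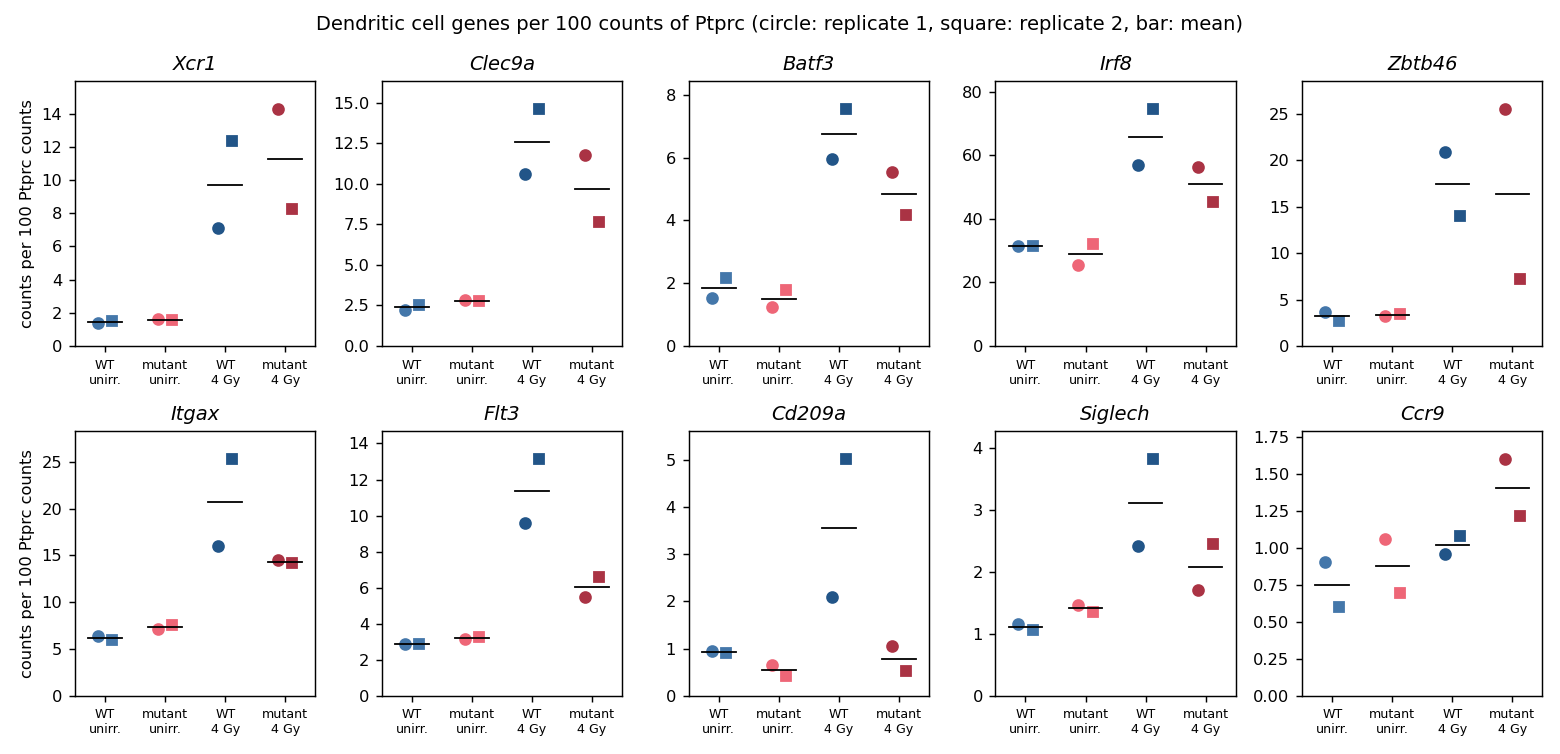
Counts of each gene per 100 counts of Ptprc in the 8 libraries, on linear axes from 0, with circles for replicate 1, squares for replicate 2 and bars for the mean. On this scale 8 of 10 genes were higher in all 4 irradiated libraries, as were 52.5% of all tested genes; Cd209a and Ccr9 overlapped.

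The second comparison was between the genotypes. Cd209a was lower in both mutants than in both wild type libraries, without and with irradiation, and was the 1 gene of the 10 with this pattern, against 2.74% of tested genes; the opposite held for 0 of 10, against 3.5%. Without irradiation 0 of the 10 genes passed the adjusted test by edgeR or DESeq2, as did 0% of all tested genes by edgeR and 0.336% by DESeq2, and 0 of 10 had an unadjusted p under 0.05, against 2.24%. After irradiation 0 of 10 passed by either tool, against 0% by edgeR and 0.386% by DESeq2, and Cd209a alone had an unadjusted p under 0.05, against 4.02% of tested genes, 3.36% higher and 0.652% lower.

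For Cd209a the group means were 8.60 ± 0.0963 (SD, n = 2) CPM in the unirradiated and 13.4 ± 11.0 (SD, n = 2) in the irradiated wild type, and 4.95 ± 2.13 (SD, n = 2) in the unirradiated and 2.74 ± 0.740 (SD, n = 2) in the irradiated mutants. The log2 fold change of mutant over wild type was -0.79 ± 0.63 (SE, adjusted p = 1) without irradiation and -2.27 ± 0.66 (SE, unadjusted p = 0.00917, edgeR adjusted p = 1, DESeq2 adjusted p = 0.147) after it, with adjusted p from 0.015 to 1 over all alternatives. Without irradiated wild type replicate 2, the library at 21.2 CPM, the second value was -1.04. The difference between the genotype effects, which is also the difference between the irradiation effects, was -1.48 ± 0.90 (SE, unadjusted p = 0.138, adjusted p = 1) and did not pass. Cd209a belongs to a family of similar lectin genes, and reads shared with its relatives could have been counted for either.

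For the other 9 genes no genotype difference passed at the adjusted or the unadjusted p. Without irradiation their log2 fold changes ran from -0.36 for Batf3 to 0.32 for Siglech, each smaller than its SE. Both mutant libraries were above both wild type ones for Itgax and Siglech (2 of 10, against 20.8% of tested genes) and below for Irf8 and Cd209a (2 of 10, against 25%). After irradiation they ran from -0.62 ± 0.58 (SE) for Flt3 to 0.63 ± 0.56 (SE) for Ccr9. Mutants were below wild type without overlap for Zbtb46 and Cd209a (2 of 10, against 7.46%) and above for 0 of 10, against 10.4%. For Zbtb46 this was 53.8 and 45.2 CPM against 57.0 and 59.2, a log2 fold change of -0.23 ± 0.26 (SE). Log2 fold changes were above 0 for 7 of 10 without irradiation, against 46.7%, and for 2 of 10 after it, against 51.6%. Their median was 0.12 without irradiation and -0.27 after it, against -0.02 and 0.02 over all tested genes. In the interaction of genotype and irradiation 0 of 10 passed by either tool, against 0% of tested genes by edgeR and 0.00677% by DESeq2, and 0 of 10 had an unadjusted p under 0.05, against 1.6%. The interaction was above 0 for 3 of 10, against 54.2%. The genotype and the irradiation comparisons use the same libraries and are not independent of each other.

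Other genes of the same pathways were taken from lists. Of 11 further type 1 genes tested, 0 passed in any of the 5 comparisons. The 2 most abundant were Cd24a, a surface glycoprotein that red cell precursors and B cells also carry, and Wdfy4, which is needed for cross-presentation. Cd24a was at 1533 ± 181 (SD, n = 2) CPM in the unirradiated and 5832 ± 2042 (SD, n = 2) in the irradiated wild type, and 1340 ± 257 (SD, n = 2) in the unirradiated and 5925 ± 6849 (SD, n = 2) in the irradiated mutants. Its irradiated mutant libraries were 10768 and 1082 CPM, the first from the spleen rich in erythroid markers. Wdfy4 was at 244 and 221 CPM in the unirradiated and 91.8 and 202 in the irradiated wild type, and 226 and 224 in the unirradiated and 70.3 and 141 in the irradiated mutants. Unlike Xcr1, it was lower in every irradiated library than in any unirradiated one.

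At an unadjusted p under 0.05, 4 of these 11 genes were higher after irradiation in each genotype and 0 were lower. Tlr3 was among the 4 in wild type only and Cd24a in mutants only. Over all tested genes, 8.69% were higher and 8.57% lower in wild type, and 13.4% and 8.7% in mutants. Of the 12 further type 2 genes described below, 0 were higher and 1 lower in wild type, and 1 and 4 in mutants. Of 14 plasmacytoid genes the counts were 3 and 3, and 2 and 2. Of 10 mature dendritic cell genes they were 1 and 0, and 3 and 0. In any size, log2 fold changes after irradiation were above 0 for 6 of the 11 type 1 genes in wild type and 7 in mutants. Over all tested genes the shares above 0 were 54.2% and 56.3%. Of the type 1 genes, Cadm1 and Id2 were named after their values had been seen, and both were among those higher. Cadm1, an adhesion molecule of the type 1 subset also found on other cells, was at 20.2 and 17.3 CPM in the unirradiated and 46.7 and 88.5 in the irradiated wild type, and 29.8 and 20.0 in the unirradiated and 123 and 74.7 in the irradiated mutants. Its log2 fold change was 1.85 ± 0.42 (SE, edgeR adjusted p = 0.142) in wild type and 1.99 ± 0.42 (SE, edgeR adjusted p = 0.0855) in mutants. Id2, a transcriptional regulator of the type 1 subset and of innate lymphocytes, was at 72.4 to 91.7 CPM in the unirradiated libraries and 152 to 242 in the irradiated ones. Its log2 fold change was 1.36 ± 0.34 (SE, edgeR adjusted p = 0.159) in wild type and 1.20 ± 0.34 (SE, edgeR adjusted p = 0.117) in mutants.

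Of 12 further type 2 genes, 1 passed: Ltb4r1, a leukotriene B4 receptor that granulocytes also carry, fell by 4.67 on the log2 scale (SE 0.58, edgeR adjusted p = 0.0270) in mutants after irradiation. It was at 4.84 and 4.55 CPM in the unirradiated and 0.721 and 0.530 in the irradiated wild type, and 11.3 and 23.6 in the unirradiated and 0.467 and 0.830 in the irradiated mutants. Granulocyte markers summed to 1173 to 1326 CPM in the unirradiated and 77.5 to 174 in the irradiated wild type, and 4662 to 9054 in the unirradiated and 160 to 185 in the irradiated mutants. All 8 markers were lower in irradiated than in unirradiated mutants, 6 of them past the adjusted threshold and all 8 at an unadjusted p under 0.05. Over all tested genes, 0.6% passed the adjusted threshold in this comparison in either direction, and 8.7% were lower at an unadjusted p under 0.05. Elane was at 0 counts in irradiated wild type replicate 1 and Ly6g in replicate 2, and the part of granulocytes in the Ltb4r1 result was not tested. The most abundant type 2 genes were Sirpa, a receptor for CD47 shared with macrophages, and Notch2, which the splenic type 2 subset needs. Sirpa was at 202 ± 6.19 (SD, n = 2) CPM in the unirradiated and 232 ± 93.3 (SD, n = 2) in the irradiated wild type. In mutants it was at 236 ± 12.15 (SD, n = 2) without irradiation and 381 ± 56.0 (SD, n = 2) after it. Notch2 was, in the same order, at 116 ± 13.4, 92.4 ± 19.9, 123 ± 9.57 and 103 ± 28.2 CPM (SD, n = 2 each). The median log2 fold change of the type 2 list after irradiation was -0.51 in wild type and -0.58 in mutants, against 0.19 and 0.30 for the type 1 list and 0.09 and 0.15 for all tested genes. Of mutant over wild type, 9 of these 12 genes were above 0 without irradiation and 8 after it, against 46.7% and 51.6% of tested genes. The medians were 0.21 and 0.07, against -0.02 and 0.02 over all tested genes. The type 2 list thus did not share the lower level of Cd209a in mutants.

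Of 14 further plasmacytoid genes 0 passed in any comparison. Bst2, a tetherin induced by interferon in many cells, was at 110 and 176 CPM in the unirradiated and 413 and 296 in the irradiated wild type, and 165 and 240 in the unirradiated and 324 and 548 in the irradiated mutants, the irradiated values all above the unirradiated ones. Ly6d, shared with B cells, was at 318 and 488 CPM in the unirradiated and 105 and 219 in the irradiated wild type, and 185 and 197 in the unirradiated and 16.0 and 144 in the irradiated mutants. Of 10 genes of mature dendritic cells 0 passed. Cd83 was at 140 ± 26.0 (SD, n = 2) CPM in the unirradiated and 85.5 ± 1.79 (SD, n = 2) in the irradiated wild type, and 110 ± 12.7 (SD, n = 2) in the unirradiated and 47.9 ± 44.5 (SD, n = 2) in the irradiated mutants. Fscn1, the actin bundler of migrating dendritic cells, was at 52.8 to 82.6 CPM in the unirradiated libraries, 123 and 112 in the irradiated wild type and 25.5 and 168 in the irradiated mutants. The 2 irradiated mutant libraries thus lay on either side of all other libraries for Fscn1.

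The ligands of 3 of the receptors were measured too, and 0 of 10 ligands and growth factor genes passed. Flt3l, the growth factor for which Flt3 is the receptor, was at 31.4 and 38.7 CPM in the unirradiated and 25.5 and 59.2 in the irradiated wild type, and 17.9 and 20.6 in the unirradiated and 21.7 and 51.4 in the irradiated mutants. Unirradiated mutants were below unirradiated wild type without overlap, with a log2 fold change of -0.87 ± 0.50 (SE, edgeR adjusted p = 1), and replicate 2 was again the higher in both irradiated groups. Xcl1 was low, at 2.37 and 3.29 CPM in the unirradiated and 2.97 and 3.0 in the irradiated wild type, and 3.36 and 4.65 in the unirradiated and 4.91 and 7.47 in the irradiated mutants. For Xcl1 the mutants were above the wild type of the same treatment in each case, with log2 fold changes of 0.50 ± 0.45 (SE) and 1.06 ± 0.46 (SE, edgeR adjusted p = 1). Ccl25 ranged from 4.76 to 10.6 CPM, and the libraries of each irradiated group lay on both sides of all unirradiated ones. Ltb, the lymphotoxin chain made mainly by lymphocytes, was the most abundant of the list and ran from 18.1 CPM in irradiated mutant replicate 1 to 590 in unirradiated wild type replicate 2, and Csf2rb, the shared receptor chain for GM-CSF, from 39.9 to 108.

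Summed over the list, the 10 dendritic cell genes ranged 2.49-fold from the lowest to the highest of the 8 libraries, and Irf8 made up 40.9% to 60.7% of that sum. Without Irf8 the sum ranged 2.38-fold, while single genes ranged from 2.27-fold for Zbtb46 to 9.55-fold for Cd209a. Sums of the further dendritic cell lists ranged 6.96-fold for type 1, 5.52-fold for mature, 1.85-fold for type 2 and 1.84-fold for plasmacytoid genes. Sums of markers of other spleen cells ranged from 3.01-fold for macrophages and monocytes and 8.47-fold for T cells to 54.0-fold for B cells and 117-fold for granulocytes. The 10 genes together made 467 to 493 CPM in the unirradiated and 361 to 724 in the irradiated wild type, and 456 to 469 in the unirradiated and 291 to 613 in the irradiated mutants. The 8 B cell markers, led by Cd79a and Cd79b, summed in the same order to 3301 to 4242, 685 to 1381, 2099 to 2119 and 78.6 to 1086 CPM, and 0 of them was at 0 counts in any library. The 8 T cell markers, led by Tcf7 and Cd3g, summed to 636 to 770, 423 to 767, 465 to 525 and 127 to 1077 CPM. The 10 macrophage and monocyte markers, led by Vcam1 and C1qc, summed to 1167 to 1190, 974 to 1284, 1484 to 1563 and 2511 to 2929 CPM. None of the B, T, or macrophage markers passed, except that C1qc rose in mutants after irradiation (log2 fold change 2.07 ± 0.31 SE, edgeR adjusted p = 0.0370). In that comparison 0.6% of all tested genes passed. Liver and fat markers, of which up to 3 of 8 were at 0 in a library, summed to 11.1 to 114, 83.5 to 181, 5.28 to 47.9 and 470 to 937 CPM and were thus highest in irradiated mutants. How far these other cells set the CPM of the dendritic cell genes was not tested.

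**Figure D5:**
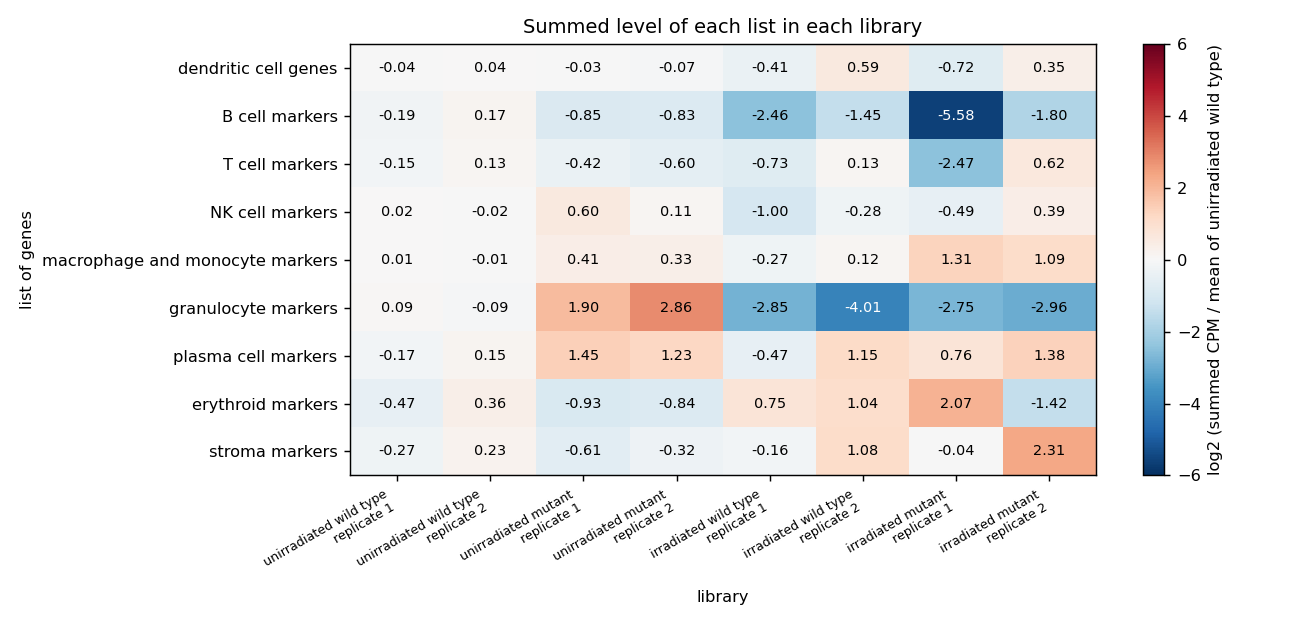
Summed CPM of the 10 dendritic cell genes and of marker lists of other cells in each library, as log2 of the ratio to the mean of unirradiated wild type (colour and number). The dendritic cell row stays between -0.72 and 0.59, while B cell markers reach -5.58 in irradiated mutant replicate 1 and granulocyte markers run from 2.86 in an unirradiated mutant to -4.01 in an irradiated wild type. The further dendritic cell lists, whose sums ranged from 1.84-fold to 6.96-fold, are not shown.

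Genes whose pattern over the 8 libraries was most like that of a dendritic cell gene were listed by the root mean square difference of log2 CPM, each gene centred on its own mean, among 13087 genes with a mean of at least 1 CPM. Nearest to Xcr1 was Rab7b, a small GTPase of late endosomes that is also in the list of type 1 genes, with a difference of 0.154. It was at 9.36 and 8.73 CPM in the unirradiated and 13.6 and 34.3 in the irradiated wild type, and 10.9 and 7.86 in the unirradiated and 17.5 and 27.6 in the irradiated mutants, with the lowest irradiated library above all unirradiated ones. Cgnl1, Astn2, Prrx2 and Mageh1 followed at 0.163, 0.166, 0.170 and 0.185. Clec9a, of the same subset as Xcr1, was at rank 351 with 0.399 and Batf3 at rank 1422 with 0.592.

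Nearest to Siglech were Ikzf2, Zfp810, Runx2, Nfatc2 and Cd160, at 0.166, 0.171, 0.194, 0.196 and 0.196. Runx2, a transcription factor that plasmacytoid cells need to leave the bone marrow and that is in the plasmacytoid list, was at 10.02 and 10.6 CPM in the unirradiated and 7.75 and 14.0 in the irradiated wild type, and 12.3 and 13.4 in the unirradiated and 3.39 and 12.5 in the irradiated mutants. Like Siglech it was lowest in irradiated mutant replicate 1. Itgax came at rank 11, Flt3 at rank 58 and Irf8 at rank 107, while Ccr9, the other plasmacytoid gene, was at rank 1452. Neighbours of this kind share the same 8 libraries, their depth and their scaling, and the lists are a description of these libraries.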

How the data were processed

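RNA was extracted from flash-frozen spleens with Trizol and made into libraries with an mRNA kit, per the labels' protocols. The growth protocol in the labels describes cultured human cells and was not used. The authors deposited whole-number read counts per gene, not normalised. The tools named in the submitters' processing notes are Subread, featureCounts and Trim Galore, with hg38 and mm10 as builds. For tool versions, strand setting and multiply mapped reads, nothing is given in the sources used here. Symbols came from GENCODE M21 (GRCm38) by Ensembl identifier (52403 of 52636 matched).

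Genes were kept by filterByExpr (minimum count 10, minimum total 15), scaled by TMM and tested with edgeR 4.0.16 (R 4.3.3) in 1 quasi-likelihood fit of all 8 libraries, with p-values adjusted by Benjamini-Hochberg over 17327 genes at 0.05. The SE is the log2 fold change over the square root of F. Residual and prior degrees of freedom were 4 and 3.87, and the common dispersion was 0.152. DESeq2 1.42.0 and limma 3.58.1 (voom) were alternatives, with other scalings, no filter, a replicate block, each contrast's libraries alone and each library left out. The procedure was checked on simulated counts. Counts of the 2 libraries of a group gave a chi-square of 19.1 to 331 for each degree of freedom, beyond sampling noise, and each library counted as 1 sample. Since no label says that they came from separate mice, the spread behind the p-values may be technical.

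All 10 genes were reported. At most 3 called genes per pathway list and comparison were named, otherwise the 2 with the highest mean CPM, and at most 2 of each other cell type. Xcl1, Ccl25, Flt3l and the 5 genes nearest to Xcr1 and to Siglech were also named. Genes and lists were chosen with earlier results of these data known. Promoters came from RefSeq (GRCm38.p6).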

Additional observations from a re-analysis of the deposited data

How the results depend on the processing

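The number of the 10 genes called was 0 in all 5 comparisons. With no filter on low counts it was 1 between irradiated genotypes (Cd209a, lower), 1 for irradiation in wild type and 1 for irradiation in mutants (Xcr1, higher in both), while the calls over all genes changed to 143, 168, 1580, 2147 and 52. Scaled to Ptprc, an alternative chosen after seeing the data, it was 3 for irradiation in mutants, where 2434 genes of all were called (2348 higher and 86 lower), and 0 for irradiation in wild type, where 98 were, against 104 and 10. With single libraries left out it ran from 0 to 1 for irradiation in wild type (Zbtb46, higher, without irradiated mutant replicate 1 or 2) and from 0 to 2 for irradiation in mutants (Flt3 and Siglech, lower, without irradiated mutant replicate 2, the library with more lymphocyte transcripts). RLE size factors, library totals, DESeq2, limma-voom and the contrast libraries alone gave 0 in each comparison they could be run for.

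With the contrast libraries alone, the calls over all genes were 469 and 0 for genotype without and after irradiation. They were 1107 and 0 for irradiation in wild type and mutants. No label says that samples of the same number belong together. Their deviations from the group means correlated at 0.465 between irradiated wild type and irradiated mutants, and at 0.0349 to 0.245 between other groups. A replicate block called 0 of the 10 genes in each comparison and 16 and 253 genes of all for irradiation in wild type and mutants, against 10 and 104. The cause of these changes was not tested.

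Directions of uncalled genes changed as follows. Scaled to Ptprc, the irradiation effect was 0.96 for Itgax in mutants, 1.07 and 0.82 for Irf8, 0.90 for Flt3 in mutants, 0.49 for Cd209a in mutants, 0.57 for Siglech in mutants, and 0.45 and 0.66 for Ccr9, all against a shift of all genes of 1.46 and 1.43. On library totals alone, which shifted all genes by -0.34 and -0.36, it was -0.16 for Siglech in wild type. With each library left out in turn, a sign changed for 23 of the values of single genes, and the lone library of a group was then taken to vary like the other groups. For the genotype effect without irradiation the log2 fold changes ran from -0.034 to 0.23 for Xcr1, -0.12 to 0.21 for Zbtb46 and -0.25 to 0.60 for Ccr9. For the genotype effect after irradiation the log2 fold changes ran from -0.35 to 1.09 for Xcr1, -0.93 to 0.33 for Clec9a, -1.10 to 0.23 for Batf3, -1.04 to 0.37 for Irf8, -1.36 to 0.45 for Itgax, -1.88 to 0.061 for Flt3, -1.71 to 0.55 for Siglech and -0.15 to 1.123 for Ccr9. For the irradiation effect in wild type the log2 fold changes ran from -0.10 to 0.88 for Batf3, -0.91 to 0.10 for Irf8, -0.39 to 0.90 for Itgax, -0.034 to 1.05 for Flt3, -0.61 to 1.28 for Cd209a and -0.65 to 0.64 for Siglech. For the irradiation effect in mutants the log2 fold changes ran from -0.17 to 0.88 for Clec9a, -0.35 to 0.92 for Batf3, -1.27 to 0.087 for Irf8, -1.26 to 0.37 for Itgax, -1.48 to 0.46 for Flt3 and -1.97 to 0.21 for Siglech.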
